A study of Mus musculus with 5 samples.

Results

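Fos, Fosb, Jun, Junb, Egr1, Atf3, Ier2, Ier3 and Dusp1 are immediate early response genes, taken here together with the growth regulator Myc. These 10 of the 31053 genes in the count matrices were chosen by name. They were followed in 5691 hepatocytes and 3651 leukocytes of 5 mouse liver libraries, 1 library per group, so each library stood for its group and no test between groups could be made. Error ranges are 95% counting intervals and cover counting error only.

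Immediate early genes are transcribed within minutes of a growth factor, cytokine or stress signal, from promoters that need no new protein synthesis, and their short-lived transcripts disappear again soon afterwards. Fos, Fosb, Jun, Junb and Atf3 encode basic leucine zipper (bZIP) proteins that pair into AP-1 and related dimers, Egr1 encodes a zinc finger factor, and Dusp1 encodes a phosphatase that switches off MAP kinases. In liver this group is known for its induction in the first hours after partial hepatectomy, and also for its induction by tissue dissociation itself. Myc encodes a bHLH factor that pairs with Max and is known for raising ribosome production and cell growth.

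All mice were C57BL/6J. One group was postnatal day 14 pups (P14), another an adult control. The other 3 were adults taken 24 h, 48 h or 96 h after most of the liver had been cut away (partial hepatectomy, PHx). The treatment protocol gives 8 weeks as the age of the mice of all 4 adult libraries. Values given below as "after PHx" follow the order of these times. Liver cells were released by perfusion in 2 steps, cleared of dead cells with a kit and counted with a 10x v3 droplet kit, in which unique molecular identifiers (UMIs) count transcripts. The labels contradict each other on the adult control, which the treatment protocol lists with the operated mice and the title and source name call a control. Here it stands as the control. The sex and number of the mice are not stated. A code in the sample description is another one for the adult control than for the other 4 libraries, so the control state cannot be told apart from whatever that code marks. Hepatocytes and leukocytes went through the same perfusion and capture in each library, and the question was whether the 10 genes moved alike in both.

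Hepatocytes were barcodes of at least 5000 UMIs with 10% to 30% mitochondrial UMIs and at least 1% Alb, Apoa1 and Ttr. Leukocytes were barcodes of at least 1000 UMIs and 500 genes with under 10% mitochondrial UMIs and at least 3 UMIs of Ptprc, Coro1a and Laptm5. P14 gave 2106 hepatocytes and 252 leukocytes, the adult control 925 and 976, and the PHx libraries 1170, 719 and 771 hepatocytes and 592, 1166 and 665 leukocytes. The mitochondrial limits let no barcode fall in both classes, and libraries shared between 0 and 4 barcodes per pair. Median depth was 18527 to 38922.5 UMIs per hepatocyte and 4632 to 8560 per leukocyte. In hepatocytes the 8 listed hepatocyte markers summed to between 53534 and 177017 CPM (UMIs per 1e6 non-mitochondrial UMIs of the class), whereas the 6 leukocyte markers summed to between 7.77 and 25.8 CPM and the 4 stellate markers to between 1.15 and 2.93 CPM. In leukocytes the leukocyte markers summed to between 4118 and 6301 CPM. The hepatocyte list holds Alb, Apoa1 and Ttr, and the leukocyte list Ptprc, Coro1a and Laptm5. The sum of each list in its own class was thus partly set by the cuts and is no check of the class. Empty droplets held a median of 287 to 1330 UMIs, the most in the adult control. There alone the median was above the leukocyte cut of 1000 UMIs, so depth did not keep empty droplets out of the control leukocytes. Barcodes of at least 1000 UMIs numbered 68549 in the control and 5015 to 19508 in the other libraries. How many control leukocytes were empty droplets was not tested.

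RefSeq promoter sequences (GRCm38.p6, 250 bases before to 50 bases after the annotated start) matched 7 of the 10 genes: Fos, Fosb, Jun, Junb, Atf3, Ier3 and Dusp1. The 4 below are shown because bZIP proteins such as those encoded by Fos, Jun and Atf3 bind motifs of this kind. Capitals mark matches on either strand to the cAMP response motif TGACGT or to TGANNTCA, the form that holds the full cAMP response element and the longer AP-1 site. Fos is at chr12:85473640-85473939 on the plus strand, Jun at chr4:95052173-95052472, Atf3 at chr1:191183284-191183583 and Dusp1 at chr17:26508423-26508722, all 3 on the minus strand.
Fos: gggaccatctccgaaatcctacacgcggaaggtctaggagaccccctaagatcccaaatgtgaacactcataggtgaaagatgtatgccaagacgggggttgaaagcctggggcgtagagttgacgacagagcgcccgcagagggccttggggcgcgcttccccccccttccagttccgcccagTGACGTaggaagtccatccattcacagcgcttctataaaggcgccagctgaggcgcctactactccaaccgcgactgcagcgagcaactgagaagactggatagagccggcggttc
Jun: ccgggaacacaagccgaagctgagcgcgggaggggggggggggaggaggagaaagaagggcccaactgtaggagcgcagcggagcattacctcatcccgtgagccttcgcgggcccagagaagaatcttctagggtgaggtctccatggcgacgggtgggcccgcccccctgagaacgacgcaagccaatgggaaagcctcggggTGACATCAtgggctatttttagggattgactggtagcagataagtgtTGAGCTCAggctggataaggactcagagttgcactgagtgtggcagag
Atf3: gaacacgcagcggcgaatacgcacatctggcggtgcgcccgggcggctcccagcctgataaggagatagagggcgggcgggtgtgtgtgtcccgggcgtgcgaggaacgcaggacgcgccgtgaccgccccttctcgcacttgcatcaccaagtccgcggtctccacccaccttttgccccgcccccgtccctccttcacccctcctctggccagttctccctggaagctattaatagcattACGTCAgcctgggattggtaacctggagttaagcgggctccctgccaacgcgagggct
Dusp1: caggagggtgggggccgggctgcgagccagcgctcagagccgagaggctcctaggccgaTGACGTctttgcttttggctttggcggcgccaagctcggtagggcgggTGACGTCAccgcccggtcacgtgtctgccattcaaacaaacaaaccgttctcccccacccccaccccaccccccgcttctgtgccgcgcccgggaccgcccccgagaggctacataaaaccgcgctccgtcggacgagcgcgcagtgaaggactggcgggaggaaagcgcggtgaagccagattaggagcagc

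The Fos window held 1 TGACGT beginning 66 bases before the start and a TATAAA 33 bases before it. Jun had no TGACGT, and its 2 matches to TGANNTCA were TGACATCA, 45 bases before the start, and TGAGCTCA, just after it. In Atf3 the TGACGT was on the opposite strand, read as ACGTCA 8 bases before the start. Dusp1 had TGACGT at 191 and again at 143 bases before the start, the latter within a palindromic TGACGTCA, which counts for TGANNTCA too and for TGACGT on both strands. None of TGACGT, TGANNTCA and the shorter AP-1 form TGANTCA was found in the windows of Fosb, Junb and Ier3. Of all 32851 promoter windows in the table, 7.51% held TGACGT, 14.1% TGANNTCA, 7.81% TGANTCA and 13.6% TATAAA. A match describes letters and shows no binding.

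Fos, whose gene lies at chr12:85473890-85477273 (GENCODE M21, GRCm38, the equivalent of the mm10 build named in the submitters' notes), encodes the founding Fos-family partner of Jun. In hepatocytes it stood at 16 CPM in P14 and 31.5 in the adult control, then 50.9, 66.3 and 70.9 CPM after PHx. All 3 PHx libraries were above the adult control and P14 was below it, and only the intervals of 48 h and 96 h overlapped among neighbours in this order. In empty droplets the control and not P14 was lowest, with 4.78 CPM of Fos there, 9.12, 28.3 and 9.66 after PHx and 5.68 in P14. These levels were below the hepatocyte level in each library. In leukocytes Fos was 29.7 CPM in P14 and 58.7 in the adult control, then 279.5 (264 to 296), 209 and 129 CPM after PHx, so that its highest library there was 24 h and not 96 h. No neighbours overlapped in leukocytes.

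Fosb encodes a second Fos-family protein, with its gene at chr7:19302696-19310051. Hepatocyte Fosb was low everywhere, at 4.43 CPM in P14 and 1.65 in the adult control, then 2.56, 5.18 and 6.10 CPM after PHx. The adult control value rests on 22 UMIs, and its interval overlapped that of 24 h. In leukocytes Fosb was 9.995 CPM in P14 and 19.99 in the adult control, then 24.7, 39.4 and 40.7 CPM after PHx, highest at 48 h and 96 h, whose intervals overlapped.

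Jun encodes the main partner of Fos in AP-1 and lies at chr4:95049034-95052222, where it overlaps the antisense gene Junos; whether the counting used strand is not given, so reads of these genes may not be separable. Its hepatocyte level was 60.9 CPM in P14 and 42.2 in the adult control, then 65.1, 89.1 and 97.5 CPM after PHx. The adult control was the lowest library, and the 48 h and 96 h intervals overlapped. Empty droplets were lowest in the control too, with 9.62 CPM of Jun there, 29.97, 38.96 and 16.63 after PHx and 25.71 in P14. These levels were below the hepatocyte level in each library. Leukocyte Jun moved less, from 46.0 CPM in P14 and 58.1 in the adult control to 71.7, 84.6 and 60.5 CPM after PHx, and each library overlapped its neighbour in the order.

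Junb encodes a Jun-family protein that can oppose Jun at some targets; its gene, at chr8:84974484-84978718, overlaps Prdx2 on the other strand. In hepatocytes Junb was 98.0 CPM in the adult control, 73.3, 68.1 and 86.3 after PHx and 35.6 in P14, so that unlike Jun it was highest in the control. The 24 h and 48 h intervals overlapped and the others did not. In leukocytes it stood at 107 CPM in P14 and 277 in the adult control, then 447, 416 and 288 CPM after PHx. There the adult control overlapped 96 h, and both earlier PHx libraries were above it.

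Egr1, a zinc finger factor and a classic serum response target, was the 1 member with a hepatocyte level above the leukocyte level in every library. Its hepatocyte levels were 128 CPM in P14 and 126 in the adult control, then 144, 216 and 239 CPM after PHx. P14 and the adult control overlapped, whereas the 3 PHx libraries were above both and apart from each other. Leukocyte Egr1 was 15.7 CPM in P14 and 16.7 in the adult control, then 21.3, 32.3 and 25.7 after PHx. Empty droplets held 25.3 to 81.9 CPM of Egr1, above the leukocyte level of the same library in all 5, so leukocyte Egr1 was not read as expression.

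Atf3, a stress-induced bZIP gene at chr1:191170296-191218039, was near the detection limit in hepatocytes. It was 0.51 CPM in P14 and 0.98 in the adult control (13 UMIs), and 2.92, 3.46 and 3.27 CPM after PHx. The 3 PHx libraries overlapped each other and lay above P14 and the adult control, which also overlapped. Atf3 in empty droplets was likewise higher in the PHx libraries, with 0.44 CPM in P14, 0.59 in the control and 2.26, 3.71 and 2.23 after PHx, above the hepatocyte level at 48 h, so the hepatocyte difference was not read as expression. In leukocytes all 5 libraries were between 2.28 and 6.64 CPM and all neighbours overlapped.

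Ier2 and Ier3 encode small immediate early proteins, Ier3 being known as a regulator of survival. Hepatocyte Ier2 (chr8:84661331-84662852) was 51.8 CPM in P14 and 65.6 in the adult control, then 50.7, 49.6 and 81.3 CPM after PHx, with 96 h alone above the adult control. In leukocytes its range, 110 to 156 CPM, was the narrowest of the 10 genes at 1.42-fold. Hepatocyte Ier3 (chr17:35821684-35822923) was 0.54 CPM in P14 and 0.83 in the adult control, then 2.72, 0.82 and 0.67 CPM after PHx, high only at 24 h and from 9 to 53 UMIs. Leukocyte Ier3 was 24.0 CPM in P14 and 9.21 in the adult control, then 77.2, 40.9 and 21.8 CPM after PHx, with the adult control lowest. Empty droplets held 35.0 to 58.6 CPM of Ier2 and 34.5 to 73.6 CPM of Junb, above the hepatocyte level for Ier2 in P14 and for Junb at 48 h. Junb in P14 was 35.6 CPM in hepatocytes and 34.5 in empty droplets, with overlapping intervals. These hepatocyte values were not read as expression, though they remain in the counts below. Ier3 in empty droplets was 1.25 CPM in the control and 4.00, 3.00 and 0.65 after PHx, above the hepatocyte level in the control, at 24 h and at 48 h, so the hepatocyte values of Ier3 were not read as expression. Leukocyte Ier3 was above the empty-droplet level in every library.

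Dusp1, the MAP kinase phosphatase, is annotated at chr17:26505590-26562128 in a span that overlaps Ergic1 and 3 other genes. In hepatocytes it was 32.9 CPM in P14, 81.9 (77.1 to 86.9) in the adult control, and 35.1, 39.7 and 57.6 CPM after PHx. The adult control was the highest library and overlapped none. Empty droplets were highest in the control too, with 42.8 CPM of Dusp1 there, 19.4, 30.7 and 15.5 after PHx and 27.5 in P14, below the hepatocyte level in each library. Leukocyte Dusp1 was 41.7 CPM in P14 and 83.2 in the adult control, then 323 (307 to 341), 247 and 98.5 CPM after PHx. The adult control levels of the 2 classes had overlapping intervals, and at 24 h the leukocyte level was 8.98-fold above the hepatocyte level.

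Myc, the growth regulator, lies at chr15:61985391-61990374. Its hepatocyte level was 22.3 CPM (19.8 to 25.0) in the adult control, 11.99 (10.5 to 13.6), 4.80 and 5.73 after PHx, and 2.01 in P14. The adult control was the highest library, and among neighbours only the 48 h and 96 h intervals overlapped. These levels rest on 297, 234, 100, 77 and 130 UMIs. In leukocytes the order was another, with 41.1 CPM in P14 and 21.1 in the adult control, then 16.7, 27.3 and 27.1 CPM after PHx. P14 was highest in leukocytes by summed CPM and lowest in hepatocytes. Of the 144 Myc UMIs of P14 leukocytes, 29 were in 1 cell and 43.1% in the top 1% of cells. After thinning to 1000 UMIs, 2.38% of P14 leukocytes held Myc, against 2.25% in the control. The leukocyte log2 ratio of 0.93 in P14 became 0.29 with this thinning. Empty droplets held 11.2 CPM of Myc in the adult control, 3.05, 3.09 and 2.26 after PHx and 2.21 in P14. The P14 hepatocyte level was thus below that of empty droplets and was not read as expression, and no ratio is given for it. At 48 h the intervals of hepatocytes (3.91 to 5.84) and empty droplets (2.15 to 4.30) overlapped. Hepatocyte Myc at 48 h was thus not read as expression either, and its ratios below are descriptions only.

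Ratios were taken as log2((CPM + 1)/(CPM + 1)) over the adult control, which all of them share, so 1 library enters every ratio. A gene was counted as different at 2-fold or more, with a minimum of 5 CPM on one side of the ratio. In hepatocytes at 24 h, 0 of the 7 members tested were higher and 1 was lower, against 8.51% and 7.13% of all genes. Fosb reached 5 CPM at 48 h and at 96 h but not in the control, so it had to differ to be tested and was left out of these counts. Myc at 48 h reached 5 CPM through the control alone and was left out there for the same reason. Of the other 6 members tested at 48 h, Fos and Jun were higher and Dusp1 lower, against 8.3% and 7.63%. Fos and Jun there fell short of 2-fold in 5 of 12 alternatives each, and Dusp1 in 3. At 96 h, Fos and Jun of 7 were higher and 1 lower (Myc), against 4.07% and 1.88%. In P14, 0 of 6 members other than Myc were higher and 2 lower (Junb and Dusp1), against 7.89% and 13.8%. Junb in P14 hepatocytes was near its empty-droplet level (35.6 and 34.5 CPM), so that value was not read as expression. Both P14 calls ended in barcodes of under 10% mitochondrial UMIs, with log2 ratios of -0.85 for Junb and -0.33 for Dusp1. Counting both directions, 21.7% of all genes were 2-fold apart in P14, 15.6% at 24 h, 15.9% at 48 h and 5.95% at 96 h. Atf3 and Ier3 were under 5 CPM in each of these pairs, and Fosb in the P14 and 24 h pairs. The median over all 10 members was 0.31, 0.38 and 0.61 after PHx, against -0.00, -0.08 and 0.04 over all genes tested. Over the 7 members of at least 5 CPM in the control the median was -0.37, -0.40 and 0.31, so its sign at 24 h and 48 h turned on Fosb, Atf3 and Ier3, the 3 genes of low level. The P14 median of all genes was -0.26, and 0.01 under TMM scaling, with 1097 genes higher and 791 lower in place of 711 and 1247.

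Hepatocyte Fos was 1.60-fold (log2 0.68, 0.52 to 0.84), 2.07-fold (1.05, 0.90 to 1.21) and 2.22-fold (1.15, 0.99 to 1.31) the control after PHx. Jun gave 1.53-fold, 2.09-fold and 2.28-fold. Egr1 had log2 ratios of 0.19, 0.78 and 0.92, so these 3 genes were farther from the control at 96 h than at 24 h. Hepatocyte Dusp1 was 2.30-fold, 2.04-fold and 1.42-fold below the control, nearest to it at 96 h. Myc was 1.79-fold below the control at 24 h and 3.46-fold at 96 h. Its 48 h level, 4.02-fold below the control, was not read as expression. In cells of 10% to 20% mitochondrial UMIs the log2 ratios at 48 h and 96 h were 0.61 and 0.80 for Fos and 0.87 and 0.88 for Jun, short of 2-fold, and Fosb had -0.19 at 48 h; Dusp1 at 48 h was -0.94 with TMM factors. Barcodes that met the other criteria with under 10% mitochondrial UMIs, 124 to 684 per library at medians of 0.10% to 1.08%, had Fos ratios of -0.70, -0.62 and -0.63 after PHx, opposite in sign to the hepatocyte class, and Jun ratios of -0.39, 0.31 and -0.85. The 7 neutrophil markers summed to 11.3 CPM in hepatocytes of the adult control (Ly6g at 0), 106, 198 and 21.7 after PHx (Ly6g at 0 at 96 h) and 30.9 in P14. Among hepatocytes without a UMI of Ptprc, Coro1a or Laptm5 the log2 ratios of Fos were 0.71, 1.08 and 1.18. Hepatocytes without a UMI of the 8 dividing-cell markers numbered 833 in the control and 180 at 48 h, and in them Fos and Jun had 0.89 and 0.64 at 48 h.

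Leukocyte Atf3 reached 5 CPM after PHx but not in the control, and leukocyte Egr1 was not read as expression. Both were left out of these counts. Of the other members, 3 were 2-fold or more higher in leukocytes at 24 h (Fos, Ier3 and Dusp1), against 6.86% of all genes. None was lower, against 11.6%. The same 3 were higher at 48 h, against 5.2%, and none lower, against 11.5%. At 96 h, Fos and Ier3 were higher, against 4.72%, and none lower, against 6.03%. In P14, Ier3 was higher and Junb lower, against 12.5% and 13.7%. The P14 call of Ier3 ended with equal lineage weights (0.35), without neutrophils (0.54) and with a pseudocount of 10 CPM (0.82), and that of Junb in T or NK cells (-0.80) and after thinning to 1000 UMIs (-0.89). In both directions together, 26.3% of all leukocyte genes were 2-fold apart in P14, 18.4% at 24 h, 16.7% at 48 h and 10.8% at 96 h. Ier3 was 7.66-fold the control at 24 h, 4.10-fold at 48 h and 2.23-fold at 96 h, Fos 4.70-fold and 3.52-fold at the first pair of times, with a log2 ratio of 1.12 at 96 h, and Dusp1 3.85-fold, 2.95-fold and 1.18-fold. Each was thus nearer to the control at 96 h than at 24 h, the opposite course to Fos in hepatocytes. The median over all leukocyte genes was -0.24 at 24 h and -0.16 at 48 h. Under TMM scaling it was -0.05 and -0.01, with 927 genes higher and 891 lower at 24 h in place of 718 and 1212. The 10 members had medians of 0.55, 0.75 and 0.47 after PHx. Those medians still include Atf3, and Egr1, which was not read as expression in leukocytes.

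**Figure D1:**
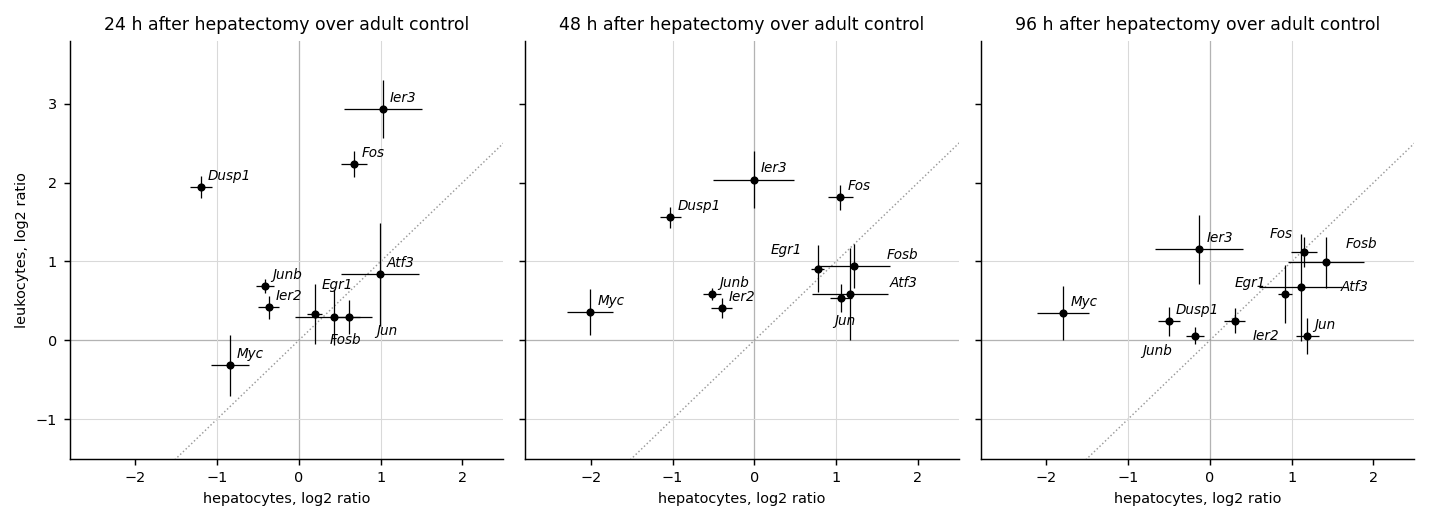
Log2 ratio over the adult control in hepatocytes (horizontal) against leukocytes (vertical) for the 10 genes at 24 h, 48 h and 96 h, with 95% counting intervals; the dotted line marks equal ratios and grey lines mark 0 and 2-fold. Dusp1 sits at the upper left at 24 h (-1.20 and 1.94) and 48 h, and Myc sits at the left at 48 h and 96 h.

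Set side by side, Dusp1 had ratios of -1.20 in hepatocytes and 1.94 in leukocytes at 24 h, and -1.03 and 1.56 at 48 h. For Myc the hepatocyte and leukocyte ratios were -1.79 and 0.35 at 96 h. At 48 h they were -2.01 and 0.36, where hepatocyte Myc was not read as expression. Jun was nearer to the control in leukocytes than in hepatocytes at 96 h (0.06 and 1.19), and Egr1 had 0.78 and 0.92 in hepatocytes at 48 h and 96 h. With 1 library per group none of these differences between classes could be tested.

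Ratios between PHx libraries leave the adult control out. In hepatocytes from 24 h to 48 h, 0 of 6 members were 2-fold or more lower and 0 higher, against 1.76% and 1.78% of all genes, with 3.54% in both directions together. Fosb and Myc reached 5 CPM in 1 of these libraries alone and were left out. The log2 ratio of Myc was -1.16, a description only, and it was short of 2-fold in 5 of 12 alternatives, among them -0.30 in barcodes of under 10% mitochondrial UMIs. From 48 h to 96 h, Myc reached 5 CPM at 96 h alone and was left out. Of the other members tested, 0 were higher and 0 lower, against 4.38% and 4.24%, together 8.62%. Fos moved by 0.38 and then 0.09, Jun by 0.45 and 0.13, Egr1 by 0.58 and 0.14, and Dusp1 by 0.17 and 0.53. In leukocytes from 24 h to 48 h, 0 of 10 were higher and 0 lower, against 1.45% and 4.61%, together 6.06%. From 48 h to 96 h, 1 of 10 was lower (Dusp1, -1.32) and 0 higher, against 2.29% and 6.94%, together 9.23%. Between 48 h and 96 h, 8 of the 10 genes had ratios below 0 in leukocytes, where the median of all genes was 0.15. In hepatocytes 2 did (Atf3 and Ier3, not read as expression there), where it was 0.11. Egr1, not read as expression in leukocytes, is among the 10 and the 8 in these leukocyte counts.

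The leukocytes were no uniform class. By listed markers, neutrophils made up 5.23% of the adult control leukocytes, 27.2%, 14.6% and 11.6% after PHx and 21.8% in P14. T or NK cells made up 68.2%, then 39.9%, 41.0% and 30.2% after PHx, and 30.6% in P14. Neutrophils carried far more Dusp1 than T or NK cells in every library, with 1288 CPM in the adult control, 873, 830 and 1006 after PHx and 151 in P14. Within neutrophils, then, Dusp1 and Fos (516 CPM in the adult control, 420, 328 and 677 after PHx) were not 2-fold above the control at any time. Within T or NK cells Dusp1 was 39.3 CPM in the adult control and 99.6, 65.8 and 21.7 after PHx. T or NK Fos was 18.1 CPM (14.3 to 22.7) in the control and 74.9 (60.9 to 91.1), 62.2 and 22.4 after PHx. Ier3, too, was higher in T or NK cells at 24 h, with 39.7 CPM against 6.12. The 96 h values of T or NK cells were near the control for Fos, and below it for Dusp1.

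The T or NK, B, neutrophil and monocyte or macrophage lineages were also given equal weight. The leukocyte ratios at 24 h were then 0.16 for Fos, -0.30 for Dusp1 and 1.47 for Ier3. That was a mean of CPM, so lineages of high level weighed most in it. In the control Fos was 516 CPM in neutrophils (51 cells) and 481 in monocytes or macrophages, but 18.1 in T or NK and 61.4 in B cells. The Fos ratios at 24 h were 1.99 in T or NK, 1.25 in B, -0.29 in neutrophil and 0.21 in monocyte or macrophage cells. Those of Dusp1 were 1.32, 1.02, -0.56 and 0.15. With equal weights the calls at the later times ended too. At 48 h the ratios were 0.28 for Fos, 0.62 for Ier3 and -0.25 for Dusp1, and at 96 h -0.025 for Fos and -0.063 for Ier3. Leaving the neutrophils out of the pool instead, the ratios at 24 h were 2.40 for Fos, 1.53 for Dusp1 and 2.60 for Ier3. Monocyte or macrophage Fos was 481 CPM in the adult control and 557, 801 and 316 after PHx, from 16 to 38 cells per library. In B cells Fos was 61.4 CPM in the control, 148, 117 and 42.6 after PHx, and 0.65 in P14, the last from 1 UMI. By summed CPM, Myc in P14 was 57.6 in B cells (15.4 in the control) and 54.9 in T or NK cells (23.3 in the control). It was near 0 in neutrophils (1.98 CPM). The first 2 levels rest on 88 and 44 UMIs, and 29 of the 144 Myc UMIs of P14 leukocytes were in 1 cell. At equal depth, 2.38% of P14 leukocytes and 2.25% of control leukocytes held Myc.

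**Figure D2:**
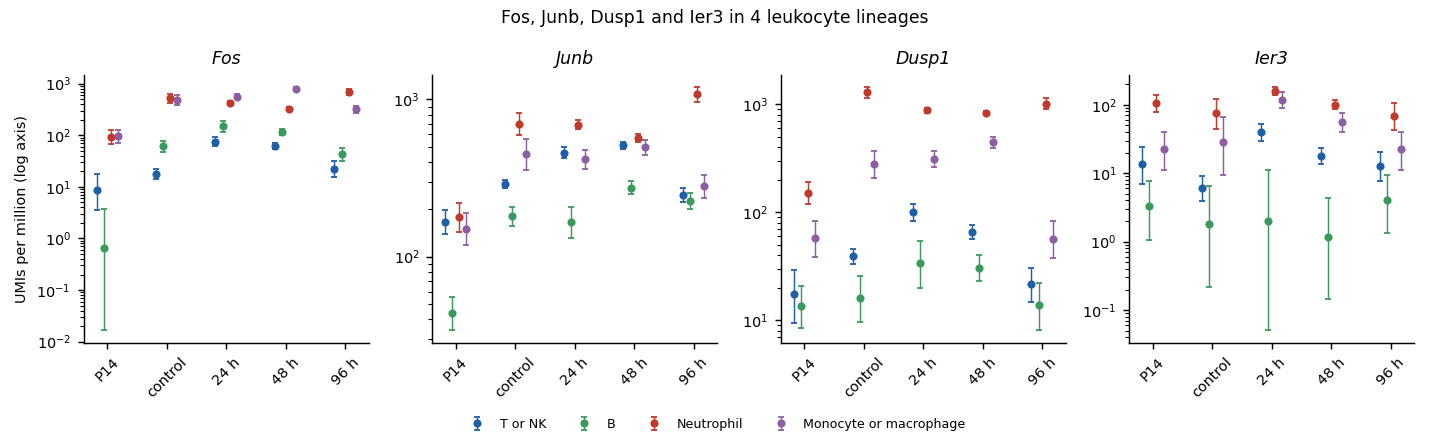
Level of Fos, Junb, Dusp1 and Ier3 (CPM, log axes that differ between plots) in 4 leukocyte lineages of each library, with 95% counting intervals. Neutrophils hold the highest Dusp1 level of the 4 in every library, 1288 CPM in the adult control, and the T or NK levels of Fos, Dusp1 and Ier3 are highest in the 24 h library.

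Hspa1b, Hspb1 and Hsph1, heat shock genes that respond to warming and handling of cells, were highest in the adult control in both classes. Hepatocyte Hspa1b was 52.3 CPM in the control, 10.5, 5.28 and 19.5 after PHx and 1.72 in P14, and Hspb1 was 19.6 CPM in the control, 3.48, 3.17 and 4.54 after PHx and 0.11 in P14. A UMI of Hspa1a, Hspa1b or Hspb1 was found in 56.2% of adult control hepatocytes, 20.3%, 21.4% and 14.4% after PHx and 5.37% in P14, at full depth. The shares of leukocytes were 14.4% in the control, 3.38%, 2.32% and 2.56% after PHx, and 0.794% in P14. Of the 11 listed heat shock and chaperone genes, 10 were tested in hepatocytes after PHx, and 0 were 2-fold or more higher than the control. Hspa1b and Hsph1 were 2-fold or more lower at each time, and Hspa8 at 48 h and 96 h. Of all genes, 7.13%, 7.63% and 1.88% were lower. Hspb1 was lower too, but reached 5 CPM through the control alone and was not counted. The median log2 ratios of the list, Hspb1 included, were -0.44, -0.59 and -0.70, against -0.00, -0.08 and 0.04 over all genes. In leukocytes Hspa1b, Hspb1 and Hsph1 were lower at each time, where 11.6%, 11.5% and 6.03% of all genes were. There 10 of the list were tested against the control but 8 between PHx libraries. Some thus passed 5 CPM through the control alone, and these leukocyte calls support no count. Hsph1 was 134 CPM in control hepatocytes and 63.1, 29.7 and 26.6 after PHx; Hspa1b and Hspa1a are near-identical copies whose reads may be split. Among hepatocytes without any UMI of these 3 genes (Hspa1a, Hspa1b and Hspb1) Myc was 20.5 CPM in the control and 12.4, 4.69 and 5.22 after PHx, and Fos had log2 ratios of 0.73, 1.19 and 1.22. Nuclear RNA also differed: hepatocyte Malat1 was 2252 CPM in the control, 1195, 1087 and 2651 after PHx and 3655 in P14.

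**Figure D3:**
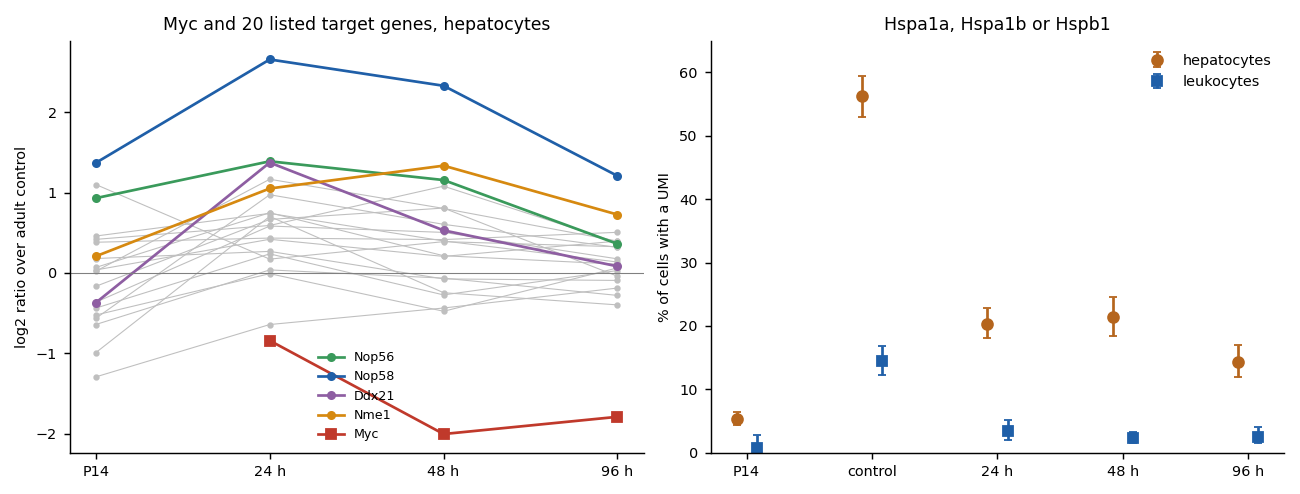
Left, log2 ratio over the adult control in hepatocytes for Myc (squares, without P14), Nop56, Nop58, Ddx21 and Nme1 (coloured circles) and the other listed Myc targets (grey) in 4 libraries; right, percent of cells with a UMI of Hspa1a, Hspa1b or Hspb1, with 95% exact binomial intervals. Myc, drawn for the PHx libraries only, lies below 0 in all 3 while Nop58 lies above it, though Myc at 48 h was not read as expression. The adult control has the highest share in both classes, 56.2% of hepatocytes.

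Most genes listed as Myc targets were not 2-fold from the control in hepatocytes. Of the 20 listed, mostly of ribosome production and nucleotide supply, 5 of 19 tested were 2-fold or more higher at 24 h (Nop56, Nop58, Ddx21, Nolc1 and Nme1), 4 of 19 at 48 h (Nop56, Nop58, Ldha and Nme1) and 1 of 20 at 96 h (Nop58), and 0 were lower at these times. The shares of all genes that were higher were 8.51%, 8.3% and 4.07%. The median log2 ratios of the list were 0.67, 0.41 and 0.15, against -0.00, -0.08 and 0.04 over all genes. In P14, 2 of 19 were higher (Ncl and Nop58) and 1 lower (Eif4ebp1), against 7.89% and 13.8%, with a median of 0.04 against -0.26. Nop58, a box C/D small nucleolar RNP protein, was 11.7 CPM in the adult control, 79.2, 62.9 and 28.3 after PHx, and 31.9 in P14. Ddx21, a nucleolar helicase, was 21.3 CPM in the control and 56.6, 31.1 and 22.5 after PHx. Nme1, a nucleoside diphosphate kinase, was 138 CPM in the control and 287, 349 and 229 after PHx. Nop56, the partner of Nop58, was 7.66 CPM in the control and 21.7, 18.3 and 10.1 after PHx. In leukocytes, 7 of 20 were higher in P14 (Ncl, Npm1, Odc1, Nop58, Srm, Nolc1 and Cdk4), against 12.5% of all genes. The list median there was 0.73 against 0.01. After PHx 1 (Eif4ebp1), 0 and 0 of 20 were higher, against 6.86%, 5.2% and 4.72%.

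Of 11 genes of the Myc network, Mxd4 and Mlxipl were 2-fold or more lower at 24 h and at 48 h, as were 7.13% and 7.63% of all genes, and 0 of 8 tested were lower at 96 h, against 1.88%. Mycl and Mnt were lower at 24 h and 48 h too, but reached 5 CPM through the control alone and were not counted. Mxd4, a Max partner that represses Myc targets, was 110 CPM in control hepatocytes and 23.5, 36.7 and 63.8 after PHx. Mlxipl, the carbohydrate response factor, was 127 CPM and 38.5, 49.2 and 75.7. Mxd3 was 10.03 CPM at 48 h against 0.30, tested through the 48 h library alone. The list medians were -0.94, -0.86 and -0.62, against -0.00, -0.08 and 0.04 over all genes. Genes that passed 5 CPM on one side alone, among them Mycl and Mnt, remain in these medians, so the medians support no direction. Mnt, a Max partner and repressor, was 9.46 CPM in the control and 4.20, 2.21 and 5.73 after PHx.

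Other immediate early genes went in both directions in hepatocytes. Of 42 listed, 9 of 31 tested were higher and 4 lower at 24 h, 5 and 6 of 30 at 48 h, and 3 and 6 of 30 at 96 h, against 8.51% and 7.13%, 8.3% and 7.63%, and 4.07% and 1.88% of all genes. The list medians were 0.29, -0.08 and -0.09. Some listed genes reached 5 CPM only in their higher library, so these counts support no direction. Lower at 24 h were Klf10, Gadd45a, Gadd45g and Pim1, higher at 48 h Ier5, Klf6, Sik1, Sgk1 and Cebpd, and higher at 96 h Nr4a1, Cyr61 and Sik1. Sgk1, a serum- and glucocorticoid-induced kinase, was 4.21 CPM in the control, 48.9, 76.7 and 8.33 after PHx. Klf10, a TGF-beta-induced zinc finger gene, was 38.5 CPM in the control and 6.05, 1.63 and 16.1. Socs3, the cytokine feedback inhibitor, was 69.7 CPM in the control, 40.4, 22.5 and 12.9 after PHx and 1.90 in P14, and Gadd45g was 151 CPM and 67.6, 66.7 and 17.2. In leukocytes the same list had 10 of 34 higher and 0 lower at 24 h, 8 of 35 and 0 at 48 h, and 4 (Egr3, Nr4a1, Klf4 and Cebpd) and 1 (Gadd45g) of 33 at 96 h. Of all leukocyte genes 6.86%, 5.2% and 4.72% were higher and 11.6%, 11.5% and 6.03% lower. The leukocyte medians of the list were 0.48, 0.44 and 0.11, against -0.24, -0.16 and -0.03 over all genes. Neutrophils went from 5.23% of the leukocytes in the control to 27.2%, 14.6% and 11.6% after PHx, and their part in this count was not tested. Socs3 there was 39.4 CPM in the control and 96.2, 86.5 and 39.2 after PHx.

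Among the other MAP kinase phosphatases, Dusp6, known to act on ERK, was 28.9 CPM in control hepatocytes and 67.5, 27.2 and 38.5 after PHx, so it was 2-fold or more higher at 24 h, as were 8.51% of all genes. Dusp8 and Dusp10 were 6.35 and 5.53 CPM at 24 h against 1.28 and 2.18; they reached 5 CPM in that library alone and had to differ to be tested, so they were not counted. Dusp16 was 39.3 CPM in the control and 38.1, 21.6 and 32.9 after PHx. No listed phosphatase was 2-fold different at 48 h or 96 h, when 2 were tested. Of the bZIP partners, 0 of 11 tested were higher at any of the 3 times, against 8.51%, 8.3% and 4.07%, and 0 lower at 96 h, against 1.88%. Mafg, a small Maf protein, was 76.7 CPM in the control and 33.9, 27.3 and 51.0 after PHx, 2-fold or more lower at 24 h and 48 h. Among 16 tested kinases, receptors and serum response genes 1 was higher at 24 h, Rps6ka3 (12.5 CPM in the control and 26.1), and 1 lower, Met, the HGF receptor (63.2 CPM and 31.1), both at about 2-fold, against 8.51% and 7.13% of all genes, so the list was near the background. At 48 h and 96 h 0 of 16 differed 2-fold, against 15.9% and 5.95%.

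The share of hepatocytes with a UMI of at least 3 of the 10 genes was highest at 96 h after thinning and at 48 h without it. With each hepatocyte thinned to 5000 UMIs, 15.9% (13.6% to 18.4%, exact binomial) of adult control cells were in this share, against 13.9%, 17.8% and 25.2% (22.1% to 28.4%) after PHx and 8.45% in P14. Without thinning these shares were 69.8%, then 67.5%, 85.7% and 83.4%, and 75.6%. Among the thinned shares, 96 h alone was above the control with intervals apart. Such a share also rises with the level of each gene alone, so it does not show that the genes were found in the same cells. Were the members found independently of each other, the thinned shares would be 15.5% in the control and 6.31% in P14. After PHx they would be 11.7%, 16.2% and 23.9%. The difference from the shares found was not tested. Myc was found in 7.24% of thinned control hepatocytes, 4.79%, 2.36% and 2.08% after PHx and 0.62% in P14. With each leukocyte thinned to 1000 UMIs, the share with at least 3 members was 3.69% in the control, 12.7%, 7.46% and 6.47% after PHx and 2.38% in P14 (31.3%, then 55.7%, 49.1% and 31.7%, and 44.0% without thinning). Free RNA enters these shares: at 96 h empty droplets held 58.6 CPM of Ier2, 50.8 of Junb and 48.2 of Egr1, where hepatocytes held 81.3, 86.3 and 239 CPM. Its part in the shares was not tested. Hepatocytes thinned to 1000 UMIs gave 0.11% in the control, 0.60%, 0.42% and 1.17% after PHx and 0.24% in P14.

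Along the lobule, Fos differed more in P14 hepatocytes than in those of the other libraries, a difference that was not tested. The cells of each library were divided by pericentral against periportal marker UMIs into 3 sets of near equal size. In P14 Dusp1 was 49.8 CPM in the 702 most periportal cells and 17.6 in the 702 most pericentral. Fos was 22.9 and 9.45, and Fosb 6.51 and 2.28, whereas Egr1 was 115 and 133. Empty droplets of P14 held 27.5 CPM of Dusp1, above its pericentral level, so that level was not read as expression and no ratio is given for it. The pericentral over periportal log2 ratio of Fos was -1.19 in P14 and between -0.78 and 0.25 in the other 4 libraries. For Dusp1 these other 4 were between -0.16 and 0.26. Across cells of 1 library, each member correlated with the sum of the others at Pearson r between -0.03 and 0.14, in thinned and sparse counts. Among the genes most like the summed members over 7190 genes, by mean r over the 5 libraries, were Serpina1e (0.089), Rps20 (0.085), Btg2 (0.084) and Zfp36l1 (0.080), correlations too weak to count as a finding.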

How the data were processed

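Liver cells of 5 libraries were sequenced on an Illumina NovaSeq. The authors deposited whole-number UMI counts per gene and barcode without normalization, 6794880 barcodes per library including empty droplets, with 80927744 to 136110607 UMIs. The submitters' processing notes name mm10, Cell Ranger, bcl2fastq 2.17.1.14 and Seurat 3.1; per the file headers the matrix software was version 3.0.2. The annotation and strand use are not given in the sources used here.

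Genes and lists were chosen with earlier results of these data known. Classes were cut as the opening of the results states. CPM are the UMIs of a gene over all cells of a class in a library, per 1e6 non-mitochondrial UMIs. Intervals were exact Poisson or Clopper-Pearson, at 95%. Lineages needed at least 2 marker UMIs and 2-fold the next lineage. Named list genes were drawn from the 4 per list with the largest hepatocyte PHx ratio and from genes that a count of 5 or fewer refers to. Some genes that this rule names are not reported here. No doublet caller was run, and 5.64% to 25.5% of hepatocytes had a leukocyte marker UMI. Scripts were tested on simulated counts. TMM factors came from edgeR 4.0.16 in R 4.3.3, the rest from Python 3.11.15 with scipy 1.17.1. Of the gene identifiers 30934 matched GENCODE M21. The alternatives tried were scaling, thinning, depth, mitochondrial and marker limits, free-RNA subtraction, lineage weights and pseudocounts of 0.1 and 10.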

Additional observations from a re-analysis of the deposited data

Results flagged for a closer look

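Dusp1 was flagged because it moved past 2-fold in opposite directions in hepatocytes and leukocytes of the same libraries. The hepatocyte minus leukocyte difference of its log2 ratios was -3.14 at 24 h and -2.59 at 48 h. The difference was not tested, since each group had 1 library. The leukocyte pool held 5.23% neutrophils in the adult control and 27.2% and 14.6% at these times. With equal lineage weights the leukocyte Dusp1 ratios were -0.30 and -0.25, in a mean of CPM where neutrophils, with the highest Dusp1, weighed most. In T or NK cells alone the ratios were 1.32 and 0.73, in B cells 1.02 and 0.88, in monocytes or macrophages 0.15 and 0.65, in neutrophils -0.56 and -0.63, in plasmacytoid dendritic cells -1.19 (counting interval -3.16 to 0.79) and 1.35, and in the pool without neutrophils 1.53 and 1.24.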

How the results depend on the processing

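No paired analysis was possible because each group had 1 library. Of 1500 member ratios recomputed under the alternatives, 1157 stayed within their counting interval, 331 moved outside it and 12 that had been past 2-fold changed sign. The cause of these shifts was not tested. In hepatocytes of 10% to 20% mitochondrial UMIs, Fosb was -0.13 in P14 and -0.19 at 48 h. In barcodes of under 10% mitochondrial UMIs, Fosb was -0.037 in P14 and -0.45 at 48 h, Fos -0.62 at 48 h and -0.63 at 96 h, Jun -0.85 at 96 h and Atf3 -0.10 at 96 h. With equal lineage weights, leukocyte Dusp1 was -0.30 and -0.25 at 24 h and 48 h, and at 96 h Fos was -0.025 and Ier3 -0.063. Under the 12 alternatives the hepatocyte Myc ratio ranged from -2.19 to -1.13 at 48 h, where Myc reached 5 CPM through the control alone, and from -2.17 to -1.04 at 96 h.

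Counting also Fosb and Myc where they reached 5 CPM on one side alone, 5 members at 48 h and 4 at 96 h were 2-fold apart in hepatocytes. This number became 3 at 24 h in barcodes of under 10% mitochondrial UMIs. At 48 h it became 3 with CPM over all UMIs, with free RNA subtracted and under 10% mitochondrial UMIs, 2 at 10% to 20% and without dividing-list UMIs, and 1 with a pseudocount of 10 CPM. At 96 h it became 2 in both mitochondrial ranges and with that pseudocount. In leukocytes the P14 number became 4 with TMM factors, without heat shock UMIs and in T or NK cells, 5 with hepatocyte markers under 1%, with free RNA subtracted and with equal lineage weights, and 1 with a pseudocount of 10. At 48 h it became 5 with TMM factors, without heat shock UMIs and without neutrophils, and 0 with equal weights. At 96 h it became 4 after thinning to 1000 UMIs, 0 with equal weights and in T or NK cells, and 1 with a pseudocount of 10. From 24 h to 48 h the number in hepatocytes became 0 at 10% to 20% mitochondrial UMIs, after thinning, without dividing-list UMIs and with a pseudocount of 10, and in leukocytes 2 after thinning and in T or NK cells and 1 with free RNA subtracted. From 48 h to 96 h it became 2 in hepatocytes in both mitochondrial ranges, and in leukocytes 2 with TMM factors and without neutrophils, 3 in T or NK cells and 0 with equal weights. The settings without heat shock UMIs, of T or NK cells alone and without neutrophils were chosen after seeing the data. Among genes of at least 50 CPM, 815, 510, 548 and 166 were 2-fold apart in hepatocytes (P14, 24 h, 48 h, 96 h) and 1016, 624, 595 and 355 in leukocytes; between PHx libraries in turn they were 126 and 306, and 140 and 296. Set against thinning to 1000 UMIs, the share of hepatocytes with at least 3 members was 8.45%, 15.9%, 13.9%, 17.8% and 25.2% at 5000 UMIs and 75.6%, 69.8%, 67.5%, 85.7% and 83.4% unthinned (P14, control, 24 h, 48 h, 96 h). The unthinned leukocyte shares were 44.0%, 31.3%, 55.7%, 49.1% and 31.7%. Depth limits hepatocyte Fosb, Atf3 and Ier3, with as few as 9 UMIs per library.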
